A study of Mus musculus with 5 samples.

Results

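The genes described here were 10 regulators of the G1 phase of the cell cycle: the cyclin genes Ccnd1, Ccnd2, Ccnd3, Ccne1 and Ccne2, the kinase genes Cdk4 and Cdk6, and the inhibitor genes Cdkn1a, Cdkn1b and Cdkn1c. They were taken by symbol from a table of 49875 gene IDs, and each matched 1 row. The table came from an RNA immunoprecipitation of wild-type mouse neocortex (forebrain, E13.5), in which the RNA that comes down with a protein is sequenced. The cytoplasm of dissociated cortical cells was precipitated with an antibody against eIF4E (2 libraries) or with rabbit control immunoglobulin G (IgG, 1 library), or was sequenced without precipitation (Input, 2 libraries). No group carried a mutation or a drug, and the labels call the 2 replicates of a group biological without saying which embryos or pools they came from, so a p-value here reflects library-to-library spread, which may be technical.

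In G1, D-type cyclins bind the kinases CDK4 and CDK6 and start the phosphorylation of the retinoblastoma protein, which releases E2F transcription factors. Cyclins E1 and E2 then activate CDK2 at the entry into S phase, and the Cip/Kip inhibitors p21 (Cdkn1a), p27 (Cdkn1b) and p57 (Cdkn1c) restrain these kinases. In the embryonic cortex the length of G1 and the exit from the cycle go with the choice between progenitor and neuron. The cap-binding protein eIF4E recruits mRNAs to the initiation machinery, and cyclin D1 mRNA is a textbook example of an mRNA called sensitive to it.

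The transcript starts are shown because the cap sits on the first transcribed base. RefSeq (GRCm38.p6) gave 8 starts for 6 of the 10 genes, and Ccnd1, Ccnd2, Ccne2 and Cdkn1c are named only. Each line gives 15 bases before and 15 bases from the annotated start, in the direction of transcription, with the first 8 transcribed bases in capitals.
Ccnd3, upstream start (chr17:47505036-47505065, + strand): ccccctcgtccccacTTCCTGCTcagcttc
Ccnd3, downstream start (chr17:47593452-47593481, + strand): ttccacggttgctacATCGTCGCgaggggc
Ccne1 (chr7:38107476-38107505, - strand): tttaaatgtcccgctCGAAGCCGggcgcag
Cdk4 (chr10:127063520-127063549, + strand): agatcacgtgtccagAACGTCCGgcgcccg
Cdk6 (chr5:3343878-3343907, + strand): ctcgtcccgctgcgtCCCGCGCTgcgctca
Cdkn1a, upstream start (chr17:29090964-29090993, + strand): aggtggggctgcttcAGTGCAGGgtggtgg
Cdkn1a, downstream start (chr17:29093754-29093783, + strand): cagctcgacgccaacTGCAGCAGccgagag
Cdkn1b (chr6:134920386-134920415, + strand): tttaaatagacttgcAGTGTCAAtcatctt
The start of a terminal oligopyrimidine (TOP) mRNA, the class that includes ribosomal protein mRNAs, was searched for as C at the first base followed by 4 bases that are each C or T, on the transcribed strand only. None of the 8 starts had it, and 823 of 32851 RefSeq starts (2.51%) did. The upstream Ccnd3 start opened with 5 pyrimidines in a row but with T at its first base, and the Cdk6 start with 3. These starts are annotated ones, and which of them were used in these cells was not measured.

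The table gave RSEM abundances per gene, either TPM or FPKM (the header does not say), so the depth behind a value was unknown and no counting interval could be given. Both units are per transcript length, and levels can be compared between genes within a library. Column totals ranged from 708778 to 718857 in eIF4E, 560076 in IgG and 838759 to 848550 in Input. The IgG library stood apart and has no replicate: where all 4 remaining libraries exceeded 10, which held for 5403 genes, it listed 360 of them at 0. The same number was 1 of 4341 in eIF4E replicate 1 and 0 in eIF4E replicate 2 and both Input libraries. The cortical progenitor markers Pax6, Emx1, Emx2, Lhx2 and Hes5 were above 1 in both Input libraries, and Sox2 was lower than these, at 2.65 and 2.58. The neuronal markers Tubb3, Dcx, Neurod6, Tbr1 and Bcl11b were above 1 there too. Of the markers of the ventral forebrain (ganglionic eminence), Nkx2-1 was at 0 in each library. Dlx1 (14.38 and 15.67) and Dlx2 (10.71 and 10.35) were present in Input. The 6 markers of this set summed to 37.04 and 34.91 in eIF4E, 49.24 in IgG and 30.61 and 33.1 in Input. Haemoglobin and other erythroid markers summed to 6051 and 4531 in eIF4E, 2321 in IgG and 16109 and 17565 in Input. The marker sums of endothelium (28.7 and 31.4 in eIF4E, 2.96 in IgG, 65.3 and 67.7 in Input), microglia (24.2 and 19.5 in eIF4E, 22 in IgG, 49.6 and 58.6 in Input) and meninges (95.1 and 91.1 in eIF4E, 271.3 in IgG, 133.9 and 115 in Input) were also lower in eIF4E than in Input. Among the meningeal markers the 3 collagen genes were lower, while Lum (13.36 and 14.89 in eIF4E, 0 in IgG, 5.71 and 5 in Input) and Dcn (26.27 and 28.51 in eIF4E, 0 in IgG, 9.97 and 10.27 in Input) were higher. Kdr and Cdh5 of endothelium and Cx3cr1 and Aif1 of microglia overlapped between eIF4E and Input, while the rest of these 2 sets were lower. The neuronal markers summed to 1245 and 1203 in eIF4E, 1029 in IgG and 1298 and 1323 in Input, and those of intermediate progenitors to 388.4 and 410.3 in eIF4E, 214.4 in IgG and 262.6 and 253.8 in Input. Among the neuronal markers Tubb3 was lower (622.42 and 555.52 in eIF4E, 945.71 and 979.5 in Input). Dcx (29.55 and 30.92 in eIF4E, 6.48 and 5.86 in Input), Neurod6, Tbr1 and Bcl11b were higher. The part of these cell types in the members' differences was not tested. The eIF4E and IgG libraries are precipitates and Input is cytoplasm without precipitation. A difference between them therefore measures neither the number of cells of a type nor the RNA per cell. Within each of these bulk libraries, cell number and RNA per cell cannot be told apart either.

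In Input, Cdk4 was the most abundant of the 10 mRNAs, ranking 17 among all genes in both libraries. Ccnd2 followed at rank 155 and 163, then Ccnd3 (400 and 411) and Ccnd1 (886 and 884). Ccne1, Cdkn1c and Cdkn1b lay between ranks 1887 and 3573, and Cdk6, Cdkn1a and Ccne2 between 5207 and 8320. In the eIF4E libraries Cdk4 ranked 13 in both and Ccnd2 ranked 25 in both. In the IgG library Ccnd2 was the second most abundant gene of the table, at rank 2 and 0.930% of the column total. Its share of the total was 0.313% and 0.328% in eIF4E and 0.0954% and 0.0931% in Input.

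**Figure D1:**
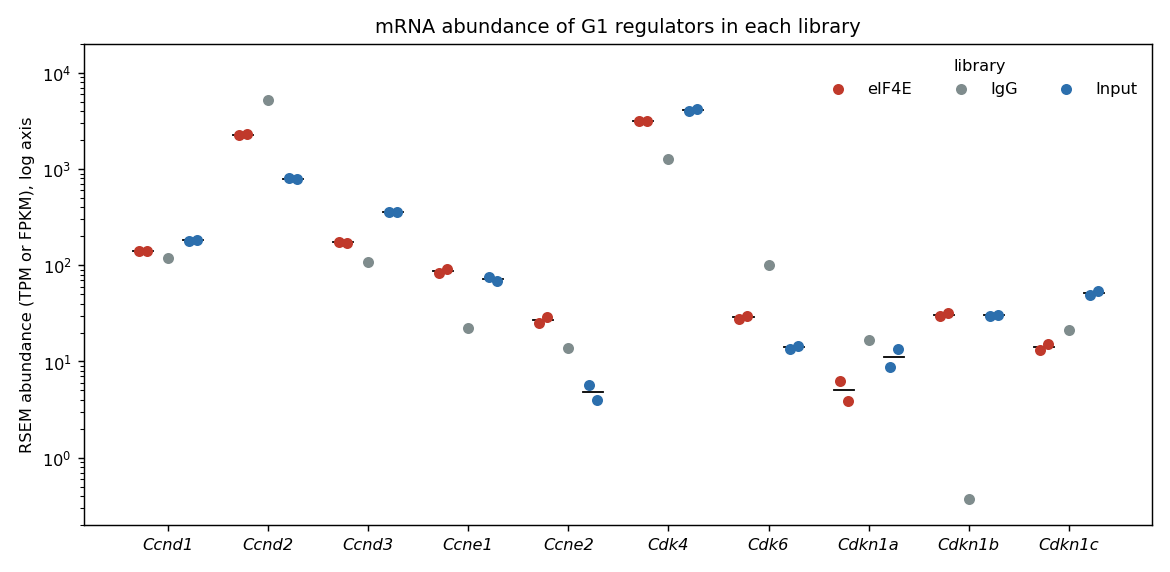
Abundance of each of the 10 mRNAs (RSEM value, log axis) in the 2 eIF4E libraries, the IgG library and the 2 Input libraries, each point 1 library and each bar the mean of 2. The IgG point for Ccnd2 lies above all others at 5210, and that for Cdkn1b below all others at 0.37.

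Setting eIF4E against Input shows which of these mRNAs had a higher or lower abundance in the eIF4E precipitate than in the cytoplasm. Ccne2, Ccnd2, Cdk6 and Ccne1 were higher in eIF4E, and Cdkn1c, Ccnd3, Cdkn1a, Cdk4 and Ccnd1 were lower. Cdkn1b did not pass the test. With limma, on Benjamini-Hochberg adjusted p under 0.05, 4 of 10 were thus higher and 5 lower, against 43.3% and 30.6% of the 12769 genes tested. In either direction 9 of 10 passed, against 73.9% of all genes, so a call by itself sets these genes little apart. The median log2 fold change of the 10 was -0.17, against 0.16 for all genes. Ccnd2, Cdk6 and Ccne2 were also higher in the IgG library than in Input (log2 2.71, 2.75 and 1.36). Ccnd2 and Cdk6 were higher in IgG than in eIF4E. The comparison with Input alone therefore does not tell an mRNA that came down with eIF4E from one that came down with control IgG.

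The scaling between libraries matters for the smaller changes. The median of all genes was 0.16 as deposited, -0.11 after median-of-ratios scaling, -0.10 after quantile normalization and 0.36 with the same total for every library, on the log2 scale. The genes called higher and lower in eIF4E against Input were 5535 and 3906 as deposited, 4417 and 5256, 4423 and 5134, and 6503 and 2748 in the same order. Folds were computed from value + 1, and values are as deposited unless stated.

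Among the D-type cyclins, Ccnd2 went 1 way and Ccnd3 and Ccnd1 the other. Ccnd2 (chromosome 6, 127125162 to 127152188) encodes the D cyclin whose mRNA is carried into the basal processes of radial glia. It measured 2248 and 2324 in eIF4E, 5210 in IgG and 799.9 and 789.9 in Input. Both eIF4E libraries lay above both Input libraries and below IgG. The rise over Input was 2.87-fold (log2 1.52, SE 0.04, adjusted p = 5.63e-05), and it was past the threshold under each of the 14 settings run, at log2 1.20 to 2.06. Against IgG, eIF4E was lower (log2 -1.19, SE 0.04, adjusted p = 3.72e-05). The locus shares 2800 bases with 9330179D12Rik, which was at 0.31 or less in every library.

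Ccnd3 (chromosome 17, 47505051 to 47599689), the D cyclin best known from lymphocytes and muscle, measured 176.5 and 171.4 in eIF4E, 109 in IgG and 355 and 355.2 in Input. The order was the reverse of that of Ccnd2, with Input highest and IgG lowest. It fell to 0.491 of Input (log2 -1.03, SE 0.04, adjusted p = 9.44e-05), past the threshold under all 14 settings, and was 1.59-fold above IgG (adjusted p = 0.000246). Relative to the median of all genes, its difference from IgG was 0.12 as deposited and -0.03 after quantile normalization. A processed copy listed as Ccnd3-ps was at 0.30 or less in every library, and the locus overlaps that of Bysl by 359 bases (22.66 and 22.87 in eIF4E, 11.11 in IgG, 36.76 and 37.71 in Input), whose part was not tested. It also shares 7217 bases with the predicted gene Gm41590, not analysed here.

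Ccnd1 (chromosome 7, 144929931 to 144939831) encodes cyclin D1. It measured 140.7 and 142 in eIF4E, 118.4 in IgG and 180.5 and 183.5 in Input. Both eIF4E libraries lay between IgG and Input, and the difference from Input was small, at 0.778 of it (log2 -0.36, SE 0.04, adjusted p = 0.00143). It was not past the threshold with the same total for every library (log2 -0.12, adjusted p = 0.0673). Against IgG it was 1.19-fold higher as deposited (adjusted p = 0.00752), and turned to log2 -0.17 after quantile normalization and -0.093 with the same total. Relative to the median of all genes it was lower than in IgG under all 4 scalings, from -0.50 to -0.30. The RefSeq locus overlaps that of LTO1 by 818 bases (30.91 and 28.57 in eIF4E, 9.18 in IgG, 15.74 and 18.6 in Input), whose part was not tested. As a share of its library it was 0.0196% and 0.02% in eIF4E, 0.0211% in IgG and 0.0215% and 0.0216% in Input.

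Ratios of genes within a library do not depend on the factor between libraries. Ccnd2 made up 87.6% and 88.1% of the summed D-cyclin abundance in eIF4E, 95.8% in IgG and 59.9% and 59.5% in Input. Ccnd3 made up 6.88% and 6.5% in eIF4E, 2.01% in IgG and 26.6% and 26.7% in Input. Ccnd1 made up 5.49% and 5.38% in eIF4E, 2.18% in IgG and 13.52% and 13.81% in Input. Replicates lay close together compared with the distance between groups. The ratio of Ccnd3 to Ccnd2 was 0.0785 and 0.0738 in eIF4E, 0.0209 in IgG and 0.444 and 0.45 in Input. With 2 libraries against 2, an exact permutation test of a single ratio cannot go below a two-sided p of 0.333, and the ratios are given as values with no test.

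**Figure D2:**
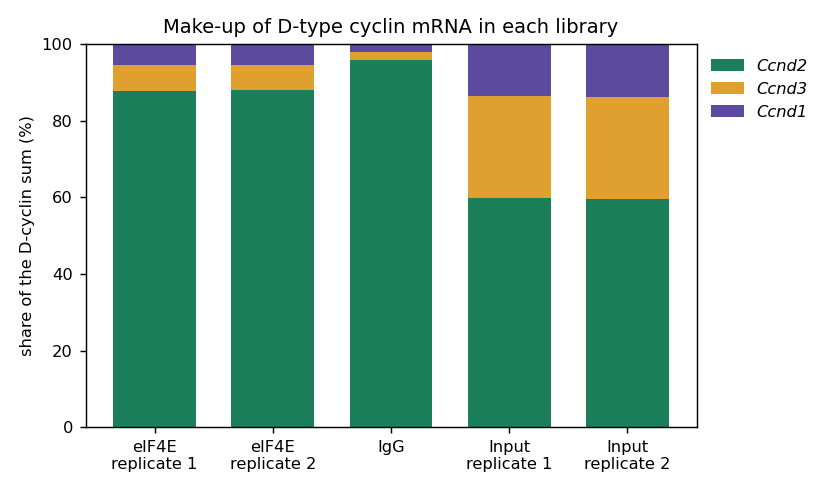
Share of each D-type cyclin mRNA in the summed abundance of Ccnd1, Ccnd2 and Ccnd3 (%), 1 bar per library. Ccnd2 fills 87.6% and 88.1% of the eIF4E bars, 95.8% of the IgG bar and 59.9% and 59.5% of the Input bars.

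Both E-type cyclin mRNAs were higher in eIF4E than in IgG. Against Input, the rise of Ccne2 was large and that of Ccne1 was small and uncertain. Ccne2 (chromosome 4, 11190433 to 11204779) measured 25.04 and 28.99 in eIF4E, 13.83 in IgG and 5.69 and 3.97 in Input. Both eIF4E libraries were above all the others. Its 4.85-fold rise over Input was the largest of the 10 (log2 2.28, SE 0.17, adjusted p = 0.000379) and lay above 95.6% of all genes tested. It held under all 14 settings, at log2 1.86 to 2.49.

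Over IgG, Ccne2 was 1.88-fold higher (adjusted p = 0.0121), a call not made without eIF4E replicate 2 (adjusted p = 0.065) and with no filter on low values (adjusted p = 0.0523). The Ccne2 locus overlaps that of Ints8, a subunit of the Integrator complex, by 5622 bases and that of A630034I12Rik, not analysed here, by 798 bases, and the libraries do not mark strand. Ints8 measured 16.3 and 20.76 in eIF4E, 0 in IgG and 5.06 and 3.19 in Input. It was thus also higher in eIF4E than in Input, and its part in the value of Ccne2 was not tested. In IgG, 1 library that listed 360 of 5403 genes above 10 elsewhere at 0, Ints8 was at 0 and Ccne2 at 13.83.

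Ccne1 (chromosome 7, 38097984 to 38107490) measured 84.08 and 92.04 in eIF4E, 22.18 in IgG and 76.12 and 69.42 in Input. It was 3.84-fold above IgG (log2 1.94, SE 0.09, adjusted p = 6.83e-05), past the threshold under each setting run for that comparison. Its difference from Input was small and uncertain, at 1.21-fold (log2 0.27, SE 0.08, adjusted p = 0.0285). It no longer passed when eIF4E replicate 2 (log2 0.21), Input replicate 1 (log2 0.34) or Input replicate 2 (log2 0.21) was left out. The call was also lost with no filter on low values (limma adjusted p = 0.0777) and with a prior that was not trended (0.0536). The difference turned to log2 -0.049 after median-of-ratios scaling. Relative to the median of all genes it lay 0.11 above as deposited and between 0.07 and 0.40 above under the other 3 scalings. The ratio of Ccne1 to Ccne2 was 3.36 and 3.17 in eIF4E, 1.60 in IgG and 13.4 and 17.5 in Input.

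The kinases of the D cyclins differed in level and in direction. Cdk4 (chromosome 10, 127063535 to 127067288) measured 3183 and 3170 in eIF4E, 1284 in IgG and 4035 and 4199 in Input. It fell to 0.772 of Input (log2 -0.37, SE 0.04, adjusted p = 0.000859), but turned to log2 0.18 after quantile normalization (adjusted p = 0.00757). It was 2.47-fold above IgG (log2 1.31, SE 0.05, adjusted p = 3.13e-05), a difference of log2 0.41 after quantile normalization, where it lay 0.08 above the median of all genes. Its only annotated overlap is 2 bases with Tspan31.

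Cdk6 (chromosome 5, 3341004 to 3531008), the second kinase that pairs with D cyclins, measured 27.92 and 29.53 in eIF4E, 100.3 in IgG and 13.61 and 14.45 in Input. As for Ccnd2, IgG was highest and Input lowest. The rise over Input was 1.98-fold (log2 0.98, SE 0.07, adjusted p = 0.000293) and held under all 14 settings, while eIF4E stood at 0.293 of IgG (adjusted p = 6.2e-05). The locus overlaps the predicted genes Gm29868 by 19218 bases and Gm36470 by 2556 bases, which were not analysed here. Cdk4 exceeded Cdk6 by 114 and 107.3 times in eIF4E, 12.8 times in IgG and 296.5 and 290.6 times in Input. Quantile normalization reduced the log2 difference of that ratio between eIF4E and Input from -1.41 to -0.53.

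The 3 Cip/Kip inhibitor mRNAs were each different. Cdkn1c (chromosome 7, 143458339 to 143461059), an imprinted gene expressed from the maternal allele and linked to cell cycle exit, measured 13.14 and 15.04 in eIF4E, 21.24 in IgG and 49.14 and 54.42 in Input. Both eIF4E libraries were below all the others. It fell to 0.286 of Input (log2 -1.81, SE 0.10, adjusted p = 0.000157), the largest fall of the 10, and 1.13% of all genes tested had a lower log2 fold change. The call held under all 14 settings, and eIF4E was also at 0.677 of IgG (adjusted p = 0.00864).

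Cdkn1a (chromosome 17, 29090979 to 29100722), the p53 target that encodes p21, was low in every library, at 6.21 and 3.85 in eIF4E, 16.62 in IgG and 8.69 and 13.61 in Input. Its SE was the largest of the 10 genes. The fall to 0.497 of Input (log2 -1.01, SE 0.28, adjusted p = 0.0274) was not past the threshold without eIF4E replicate 2 (adjusted p = 0.125), without Input replicate 2 (0.132) or with no filter on low values (0.104). Against IgG, eIF4E stood at 0.336 (adjusted p = 0.0103), a call lost with no filter (0.0518).

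Cdkn1b (chromosome 6, 134920401 to 134925525), which encodes p27 and is known in the cortex for cell cycle exit and neuronal migration, measured 29.83 and 31.64 in eIF4E, 0.37 in IgG and 29.49 and 30.73 in Input. The eIF4E and Input libraries overlapped, with a log2 difference of 0.03 (SE 0.07, adjusted p = 0.744). That difference ranged from -0.29 after median-of-ratios scaling (adjusted p = 0.0257) to 0.26 with the same total (adjusted p = 0.0328). Relative to the median of all genes it was between -0.17 and -0.03 under the 4 scalings.

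In IgG Cdkn1b was near 0, and the rise of eIF4E over IgG was the largest of the 10, at 23.2-fold on the scale of value + 1 (log2 4.53, SE 0.09, adjusted p = 1.28e-05). The SE comes from the other libraries, and the size depends on the pseudocount (log2 6.04 with 0.1). Cdkn1b was not alone in this. Of the 5403 genes above 10 in all the eIF4E and Input libraries, IgG listed 360 at 0. The 3 genes whose pattern over the 5 libraries lay nearest to Cdkn1b, Pknox2, Pink1 and Smug1, were picked on these same values. They measured between 20.96 and 23.82 in the eIF4E and Input libraries and were listed at 0 in IgG. The ratio of Cdkn1b to Cdkn1c was 2.27 and 2.10 in eIF4E, 0.0174 in IgG and 0.60 and 0.565 in Input.

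**Figure D3:**
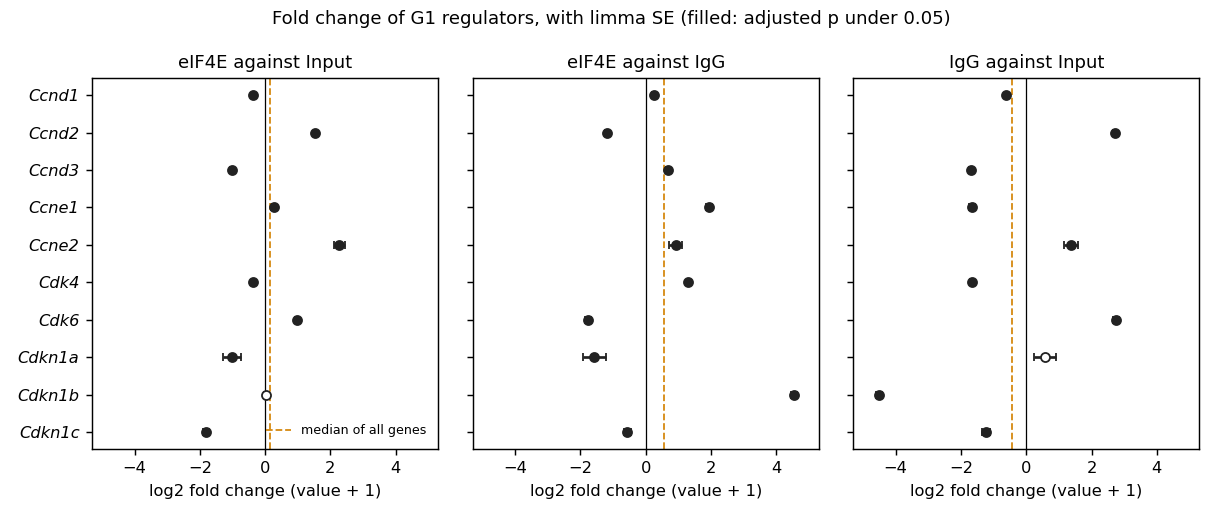
Log2 fold change (value + 1) of each of the 10 mRNAs in 3 panels (eIF4E over Input, eIF4E over IgG, IgG over Input), with limma SE. Filled points are past an adjusted p of 0.05 and the dashed line is the median of all genes. Ccne2 lies furthest right at 2.28 and Cdkn1c furthest left at -1.81 in the first panel.

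Setting both against IgG shows how these mRNAs stood in the control precipitate, of which there was 1 library. Over IgG, 6 of 10 were higher in eIF4E and 4 lower, against 53.1% and 30.6% of all genes, and 83.8% in either direction. Between IgG and Input, 3 were higher in IgG and 6 lower, against 37.8% and 50.3% of all genes, and 88.1% in either direction. The medians of all genes were 0.55 (eIF4E over IgG) and -0.43 (IgG over Input) as deposited, and 0.26 and 0.03 with the same total. The comparisons share libraries and are set side by side only. In IgG against Input the log2 difference was 2.75 for Cdk6, 2.71 for Ccnd2 and 1.36 for Ccne2. It was -4.50 for Cdkn1b, -1.69 for Ccnd3, -1.68 for Cdk4, -1.67 for Ccne1, -1.25 for Cdkn1c and -0.62 for Ccnd1. Cdkn1a did not pass (log2 0.57, adjusted p = 0.181). The call for Ccnd1 was lost after quantile normalization (adjusted p = 0.543) and with the same total (0.649), and Cdkn1a was called higher with the same total (0.0241). Cdk4 was at log2 -0.23 after quantile normalization, where its difference relative to the median of all genes was 0.15, against -1.25 as deposited.

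The genes with the most similar pattern were sought by the Euclidean distance of log2(value + 1), centred on each gene's mean over the 5 libraries, among 11434 genes. For Ccnd1 they were Wnt7b, Dtymk and Znhit3 (distances 0.02 to 0.04), and for Ccnd2 Kat6a, Bpnt2 and Dicer1 (0.06 to 0.08). Dicer1 measured 6.82 and 7.45 in eIF4E, 16.57 in IgG and 1.75 and 1.69 in Input. The added 1 shrinks differences between low values, so a low gene can lie near an abundant member with unlike ratios between libraries. Bpnt2, near Ccnd2, measured 5.3 and 5.07 in eIF4E, 12.83 in IgG and 1.16 and 1.12 in Input. Chic1, near Cdk6 (next sentence), measured 1.66 and 1.89 in eIF4E, 8.12 in IgG and 0.27 and 0.36 in Input. For Cdk4 they were Elof1, Ube2c and Ier2 (0.07 to 0.08), and for Cdk6 Kbtbd7, Chic1 and Rfx7 (0.08 to 0.10). Ccnd3 lay nearest to Ppp2r5d, Fdft1 and Tmbim6 (0.07 to 0.09) and Ccne1 to Fam160b2, Nipa2 and Maea (0.12 to 0.13). Ccne2 lay nearest to Fam171b, Tmem263 and Rad17 (0.20 to 0.25), and Cdkn1c to Fndc4, Trir and Rbms2 (0.14 to 0.25). The distances were largest for Cdkn1a (0.26 to 0.37), whose nearest gene was Dlx5.

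Other genes of G1 control, listed by their known role, were examined beside the 10. Of 66 listed symbols 59 were tested. In eIF4E against Input 31 of these were higher, 9 lower and 19 not past the threshold, where 43.3% of all genes were higher and 30.6% lower. The median log2 fold change of the list was 0.37 against 0.16 for all genes. After median-of-ratios scaling 22 were higher and 15 lower, after quantile normalization 25 and 15, and with the same total 39 and 5. Dmtf1, a Myb-like activator of the Arf gene, was at 25.45 and 27.62 in eIF4E, 24.31 in IgG and 2.54 and 2.45 in Input (log2 2.98, SE 0.08, eIF4E against Input). Cip2a, an inhibitor of the phosphatase PP2A, followed at log2 2.84, with 18.58 and 20.46 in eIF4E, 62.2 in IgG and 1.96 and 1.77 in Input. Cul1, the cullin of SCF ubiquitin ligases, was at 118.96 and 116.96 in eIF4E, 134.17 in IgG and 18.02 and 14.23 in Input (log2 2.81). Each of the 3 was lowest in Input, and Cip2a and Cul1 were highest in IgG. The largest falls were in Cryab (log2 -1.30), a small heat shock protein, Ddb1 (log2 -1.20), an adaptor of CUL4 ligases, and Trp53 (log2 -0.98), which encodes p53. Trp53 measured 180.9 and 182.83 in eIF4E, 100.43 in IgG and 357.82 and 362.29 in Input, the order seen for Ccnd3.

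By role, the retinoblastoma gene Rb1 was at 5.31 and 5.32 in eIF4E, 27.56 in IgG and 1.26 and 1.34 in Input (log2 1.46, SE 0.09, adjusted p = 0.000227 against Input). Its relative Rbl1 did not pass (log2 0.18, adjusted p = 0.357), and Rbl2 was higher (log2 1.36, SE 0.14). Cdk2, the partner of the E cyclins, measured 57.56 and 60.71 in eIF4E, 33.64 in IgG and 80.8 and 77.7 in Input. It was lower in eIF4E than in Input (log2 -0.42, SE 0.06, adjusted p = 0.00253), but not past the threshold with the same total (adjusted p = 0.0588). E2f1 (log2 -0.19) and Myc (log2 0.18) did not pass (adjusted p = 0.233 and 0.0589).

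The following groups were singled out after their values were seen, and 43.3% of all genes were higher in this comparison. Of the 8 E2F genes, E2f3, E2f5 and E2f6 were higher in eIF4E than in Input and none was lower as deposited, while 3 and 4 were lower after median-of-ratios scaling and quantile normalization. The 4 subunits of the SCF ligase that marks p27 for degradation, Skp1, Cul1, Rbx1 and Skp2, were all higher under each of the 4 scalings. Cks1b, a cofactor of Skp2 in the same list, did not pass as deposited (log2 0.11, limma adjusted p = 0.434). It measured 355.96 and 283.17 in eIF4E, 90.81 in IgG and 288.52 and 300.11 in Input. The log2 fold changes of the 4 subunits ran from 0.70 for Rbx1 to 2.81 for Cul1 as deposited, and from 0.37 to 2.49 for the same genes after median-of-ratios scaling. Skp1, the adaptor, measured 651.5 and 660.9 in eIF4E, 147.1 in IgG and 211.6 in both Input libraries. Skp2, the substrate receptor, measured 42.56 and 42.16 in eIF4E, 17.15 in IgG and 23.44 and 24.32 in Input. Rbx1 was also above IgG (156.5 and 150.51 in eIF4E, 72.62 in IgG), but Cul1 was not (118.96 and 116.96 in eIF4E, 134.17 in IgG). Of the E2F genes higher than in Input, E2f5 and E2f6 were above IgG (9.09 and 4.19 there). E2f3 was not, at 9.16 and 8.14 in eIF4E and 9.9 in IgG.

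**Figure D4:**
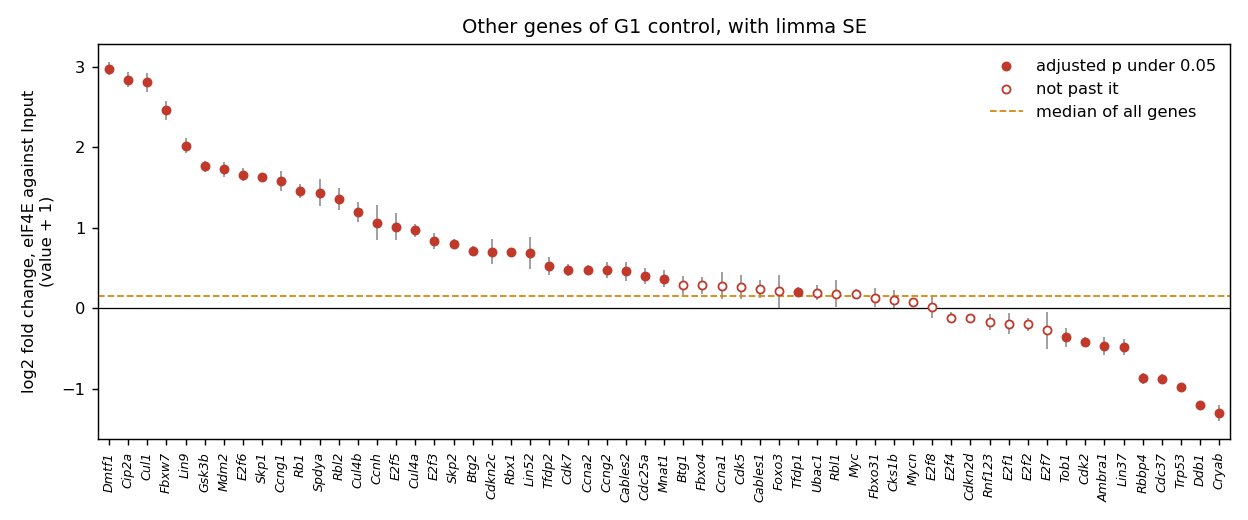
Log2 fold change (value + 1) in eIF4E against Input of the 59 other G1 genes tested, in descending order, with limma SE. Filled points are past an adjusted p of 0.05 and the dashed line is the median of all genes. Dmtf1 is highest at 2.98 and Cryab lowest at -1.30.

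Against IgG, 28 of the 59 were higher and 17 lower, close to the 53.1% and 30.6% of all genes, with a median of 0.36 against 0.55 for all genes. The largest rises were in E2f8 and Ccng1, both listed at 0 in IgG. E2f8, an atypical repressor of the E2F family, measured 10.35 and 12.13 in eIF4E and 10.02 and 12.18 in Input. The largest falls were in Rbl2 (log2 -2.67) and Rbl1 (log2 -2.64), the relatives of Rb1. Rbl2 measured 4.07 and 5.16 in eIF4E, 34.66 in IgG and 1.08 and 1.27 in Input, and all 3 genes of this family were lower in eIF4E than in IgG. In IgG against Input 23 were higher and 25 lower, where 37.8% of all genes were higher and 50.3% lower, with Cip2a (log2 4.46) and Lin9 (log2 4.26), a subunit of the MuvB complex, at one end and E2f8 and Cryab, listed at 0 in IgG, at the other.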

How the data were processed

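The authors deposited 1 table of abundance scores per gene, RSEM values that are either TPM or FPKM, with 1 column per library. STAR 2.7.9a, RSEM 1.3.3 and mm10 are named in the submitters' processing notes; other settings of these tools were not stated in the labels. Libraries were made by Smart-seq2, per the labels' protocols, which marks neither strand nor molecules. RSEM divides reads that match several genes, and overlapping genes on opposite strands cannot be separated.

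Of 50161 rows, 286 repeats were dropped. The 12769 genes that reached 1 in 2 or more libraries, all 10 members among them, were tested on log2(value + 1) with limma 3.58.1 in R 4.3.3: 1 fit of 3 groups with a trended prior, two-sided p-values, adjusted by Benjamini-Hochberg over these genes, and a threshold of 0.05. Residual degrees of freedom number 2, and the single IgG library takes its spread from the other groups. The fit was checked on simulated data for eIF4E against Input only, which did not check the spread assumed for IgG. The context list was described by counts and median. By rule, the genes named from it were the 3 (against Input) or 2 highest and lowest past the threshold, plus Rb1, Rbl1, Cdk2, E2f1 and Myc. Outside this rule, Rbl2 against Input, Skp1, Rbx1, Skp2, Cks1b, E2f3, E2f5 and E2f6 were also named. The E2F and SCF groups were singled out after their values were seen. Genes most similar to a member were the 3 nearest. Members and lists were chosen with earlier results of these data known. Coordinates are RefSeq GRCm38.p6, the assembly of mm10. Alternatives covered scaling, pseudocount, filter, trend, left-out libraries, the replicate block and the libraries fitted.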

Additional observations from a re-analysis of the deposited data

How the results depend on the processing

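Against Input, each member was recomputed under 13 alternatives, and 113 of 130 values kept their direction and side of the threshold. In eIF4E against IgG 105 of 110 did, and in IgG against Input 107 of 110. Directions turned after median-of-ratios scaling for Ccne1 (log2 -0.049), Cdkn1b (-0.29), Rbl1 (-0.089) and Myc (-0.13), and after quantile normalization for Cdk4 (0.18), Cdkn1b (-0.13), Rbl1 (-0.39), Myc (-0.059) and, against IgG, Ccnd1 (-0.17). With the same total for every library they turned for E2f1 (0.011) and, against IgG, Ccnd1 (-0.093). Cdkn1b also turned without eIF4E replicate 2 (-0.013) and without Input replicate 1 (-0.00036), and ranged from -0.013 to 0.070 with 1 library left out. The cause was not tested. Among genes above 0 in all libraries, 4389 were higher in eIF4E than in IgG and 4072 lower in IgG than in Input, against 6785 and 6428; that filter removes genes listed at 0 in IgG. The replicate numbers are not shown to pair the libraries: deviations of same-numbered eIF4E and Input libraries correlated at r = 0.0236 over 12769 genes. With the number as a replicate block 5401 genes were higher and 3749 lower than Input, with 3 and 5 members, and Ccne1 was not called (adjusted p = 0.0576). No paired analysis was possible for comparisons with IgG because that library has no number. Depth is unknown, which limits the reading of the low values of Cdkn1a, Ccne2 and, in IgG, Cdkn1b.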
